A study of Arabidopsis thaliana with 15 samples.

Results

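AT4G12490, AT4G22470 and AT5G48490 are 3 Arabidopsis thaliana genes of the lipid transfer protein family, taken from the 13355 genes that had a probe set paired with them alone. They were selected on the measured differences between groups in these arrays, as genes among the largest called differences with no overlap between the groups. AT4G12490 was selected on hy5-1 minus uvr8-1 and hy5-1 minus wildtype, both under UV-B, AT4G22470 on hy5-1 minus wildtype alone, and AT5G48490 on UV-B minus white light in uvr8-1 and in wildtype. Those differences are given below as a description, without a test. Each gene is listed by 1 probe set, which represents it throughout.

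Plant lipid transfer proteins are small, usually secreted proteins whose conserved cysteines form disulphide bridges around a cavity that can hold a lipid. Members of the family take part in building the cuticle, the waxy outer layer of the leaf, and in defence against pathogens. AZI1 and EARLI1, hybrid proteins with a proline-rich stretch before the lipid transfer domain, and DIR1 act in systemic defence, in which an infected leaf primes distant leaves. UVR8 encodes the UV-B photoreceptor, and HY5 encodes a bZIP transcription factor that acts downstream of it and of other light receptors.

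Leaf RNA was hybridised to 15 single-colour Affymetrix ATH1 arrays, 3 for each of 5 groups, which the labels describe as biological replicates. In the Landsberg erecta background, UV-B was given to groups of hy5-1, uvr8-1 and wildtype plants, while further groups of uvr8-1 and wildtype plants stayed in white light. Every plant grew in compost for 3 weeks at 21 °C under 25 µmol m-2 s-1 of continuous white light, and the UV-B treatment lasted 4 h at 3 µmol m-2 s-1. Each mutant gene was represented by 1 allele, and with no hy5-1 sample in white light, the effect of the hy5-1 allele on the UV-B response cannot be told apart from an effect it has without UV-B.

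Values are log2 RMA levels, so a difference of 1 is a doubling of signal. Differences are given with their standard error from 1 limma model over all 15 arrays, and p-values are adjusted by the Benjamini-Hochberg method over all 22746 probe sets tested. Called means an adjusted p under 0.05, with no minimum fold. Array medians lay between 4.31 and 4.40. UVR8 and HY5 had no probe set of their own in the annotation used, so the mutant labels were not checked against these genes. The 2 measured leaf markers of 9 listed, RCA and LHCB4.2, had a mean level of 10.34 to 11.91 on every array, and the 3 measured root markers of 5 listed had a mean of 4.25 to 4.98. The root markers were not alike: PYK10 was at 6.58 to 8.33, and AT1G30870 and AT5G17820 were at 2.90 to 3.64. The hy5-1 arrays stood apart in a control: the GAPDH probe sets for the 3′ and 5′ ends of the transcript differed by 2.97, 3.17 and 1.82 in hy5-1 under UV-B, against 0.64 to 1.52 on the other 12 arrays. This difference is a measure of RNA integrity and labelling, and 1 other of the 6 control pairs, a ubiquitin pair, also separated hy5-1 from the other arrays. The mean difference was highest in hy5-1 for all 6 pairs, although for 1 actin pair it was 3.87 against 3.85 in uvr8-1 in white light. Because leaf RNA is a mixture of cell types, fewer cells of a type and less RNA per cell cannot be told apart in any value below.

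AT4G12490 lies in a block of related genes with AZI1 and EARLI1, and its level was high in hy5-1 under UV-B and variable elsewhere. Its log2 level was 9.21, 9.60 and 9.65 on the 3 arrays of hy5-1 under UV-B. Under UV-B it was 6.11, 5.18 and 5.95 in uvr8-1 and 5.77, 5.20 and 7.87 in wildtype. In white light it was 6.27, 4.93 and 4.26 in uvr8-1 and 4.89, 3.91 and 6.02 in wildtype. The 3 hy5-1 arrays were above all 12 others, the nearest being replicate 3 of wildtype under UV-B. Of all probe sets 16.0% had every hy5-1 array above every wildtype array under UV-B, and 17.1% above every uvr8-1 array. The other 4 groups overlapped at each step of their order, which ran from wildtype under UV-B through uvr8-1 under UV-B and uvr8-1 in white light to wildtype in white light.

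The mean of AT4G12490 in hy5-1 exceeded that in wildtype under UV-B by 3.21 ± 0.68, or 9.23-fold, and that in uvr8-1 under UV-B by 3.74 ± 0.68, or 13.3-fold. These differences chose the gene. In the same comparisons 2.77% of all probe sets were called higher in hy5-1 than in wildtype and 5.37% higher in hy5-1 than in uvr8-1. Both comparisons share the hy5-1 arrays. Without replicate 3 of wildtype under UV-B the difference from wildtype was 4.00, and without replicate 2 of that group it was 2.66. The 1 guard cell marker measured of 4 listed, FMA, had a level of 5.13 to 5.17 in hy5-1. It was at 5.23 to 5.92 in the other UV-B groups and 5.61 to 6.34 in white light. FMA was called lower in hy5-1 than in wildtype under UV-B, at -0.55 (limma), beside 4.81% of all probe sets. Against uvr8-1 it was not called, at -0.29. The 1 phloem companion cell marker measured of 4 listed had 9.86 to 10.14 in hy5-1, against 9.23 to 9.98 in the other groups. Their part in the hy5-1 differences was not tested. The markers listed for epidermis, trichomes and flowers or seeds had no probe set of their own.

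For the comparisons that did not choose it, AT4G12490 passed no test. UV-B minus white light was 0.60 ± 0.68 in uvr8-1 (limma, adjusted p = 0.613), with equally numbered arrays differing by -0.16, 0.25 and 1.70. It ranged from 0.15 without replicate 3 of uvr8-1 in white light to 1.15 without replicate 1 of that group. In wildtype it was 1.34 ± 0.68 (limma, adjusted p = 0.168). The wildtype pairs were all above 0, at 0.89, 1.29 and 1.85, but the groups overlapped. Without replicate 3 of wildtype under UV-B the wildtype response was 0.55. The difference of the responses, uvr8-1 minus wildtype, was -0.75 ± 0.96 (limma, adjusted p = 1). uvr8-1 minus wildtype was -0.53 ± 0.68 under UV-B and 0.22 ± 0.68 in white light, neither called (limma, adjusted p = 0.901 and 1). The gene varied widely among replicates: its residual SD was 0.94, larger than that of 99.6% of probe sets, against a median of 0.19 over all of them.

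AT4G22470 was near the bottom of the scale except in hy5-1. Its log2 level was 5.81, 5.39 and 3.94 in hy5-1 under UV-B. Under UV-B it was 3.00, 2.81 and 3.02 in uvr8-1 and 3.15, 2.72 and 3.03 in wildtype. In white light it was 3.01, 2.83 and 2.65 in uvr8-1 and 3.13, 2.97 and 2.84 in wildtype. No hy5-1 array overlapped the others, whose 12 values all lay under 3.74, the level below which 40% of probe sets have their mean over all arrays. Under UV-B, 16.0% of all probe sets had every hy5-1 array above every wildtype array, and 17.1% above every uvr8-1 array. A fold against values at the bottom of the scale can understate a change of transcript level.

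The mean of AT4G22470 in hy5-1 exceeded that in wildtype under UV-B by 2.08 ± 0.34, or 4.24-fold, which chose the gene. It exceeded that in uvr8-1 by 2.11 ± 0.34, or 4.30-fold, a comparison with the same hy5-1 arrays that is therefore also given without a test. The hy5-1 values themselves spread over 1.87, and replicate 3, the lowest of them at 3.94, was also the hy5-1 array with the smallest GAPDH difference. With the GAPDH difference as a covariate, a fit chosen after the data were seen, hy5-1 minus wildtype was 0.20 ± 0.40 and hy5-1 minus uvr8-1 was 0.15 ± 0.41. Of the variation of that covariate within groups, 84.8% lay among the 3 hy5-1 arrays, so the adjustment rests largely on replicate 3. Under the same covariate AT4G12490 differed by 2.76 ± 1.47 against wildtype and 3.27 ± 1.51 against uvr8-1. Without hy5-1 replicate 3, and with no covariate, AT4G22470 differed from wildtype by 2.64 and from uvr8-1 by 2.66.

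**Figure D1:**
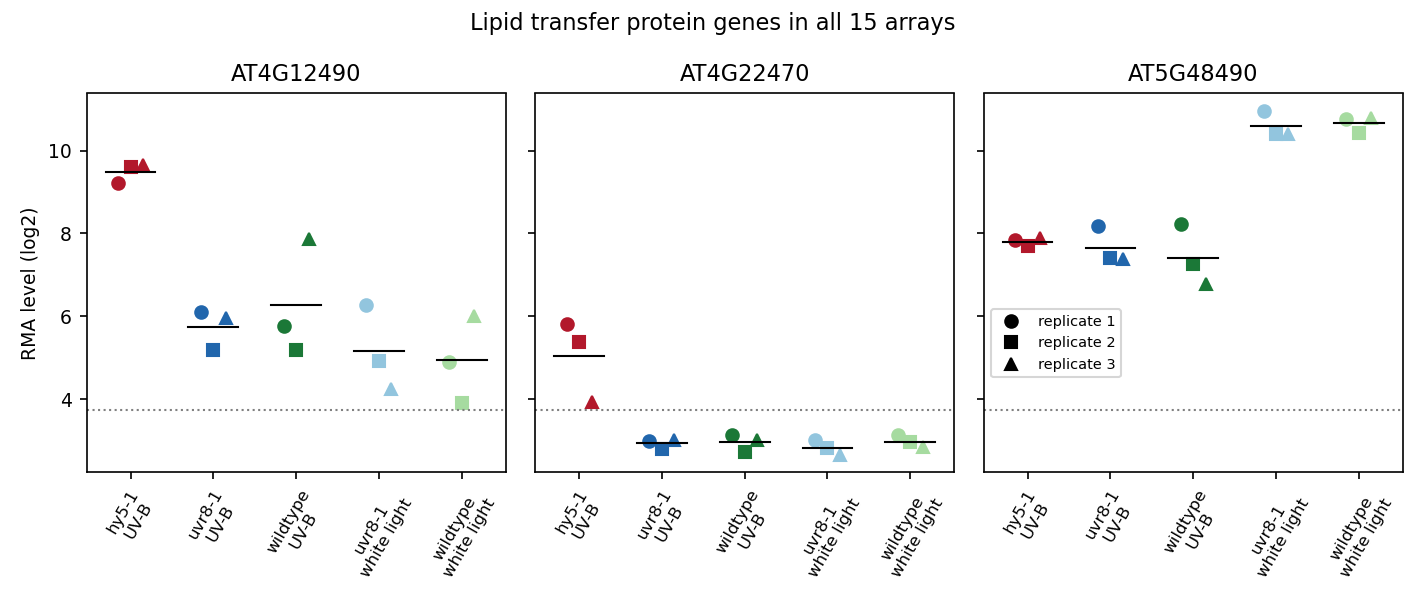
Log2 RMA level (y axis) of the 3 lipid transfer protein genes on each of the 15 arrays, by group (x axis). Symbols mark the replicate number, black bars the group mean, and the dotted line the level of 3.74 below which 40% of probe sets lie. AT4G12490 and AT4G22470 were higher in the 3 hy5-1 arrays than in the other 12, AT4G22470 only slightly so in replicate 3, at 3.94, and AT5G48490 was low in all 9 UV-B arrays.

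No UV-B response of AT4G22470 passed the test. UV-B minus white light was 0.12 ± 0.34 in uvr8-1 (limma, adjusted p = 0.873) and -0.02 ± 0.34 in wildtype (limma, adjusted p = 0.982). uvr8-1 minus wildtype was -0.02 ± 0.34 under UV-B (limma, adjusted p = 0.998) and -0.15 ± 0.34 in white light (limma, adjusted p = 1), where the equally numbered arrays differed by -0.12, -0.14 and -0.20. All 4 groups overlapped, and with levels this close to the floor a small response was not detectable. The residual SD, pooled over all 5 groups, was 0.46, where the SD was 0.98 in hy5-1 under UV-B and 0.11 to 0.22 in the 4 groups compared here. The standard errors above therefore carry the spread of the hy5-1 arrays, which are not in these comparisons. The residual SD of AT5G48490 was 0.42.

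**Figure D2:**
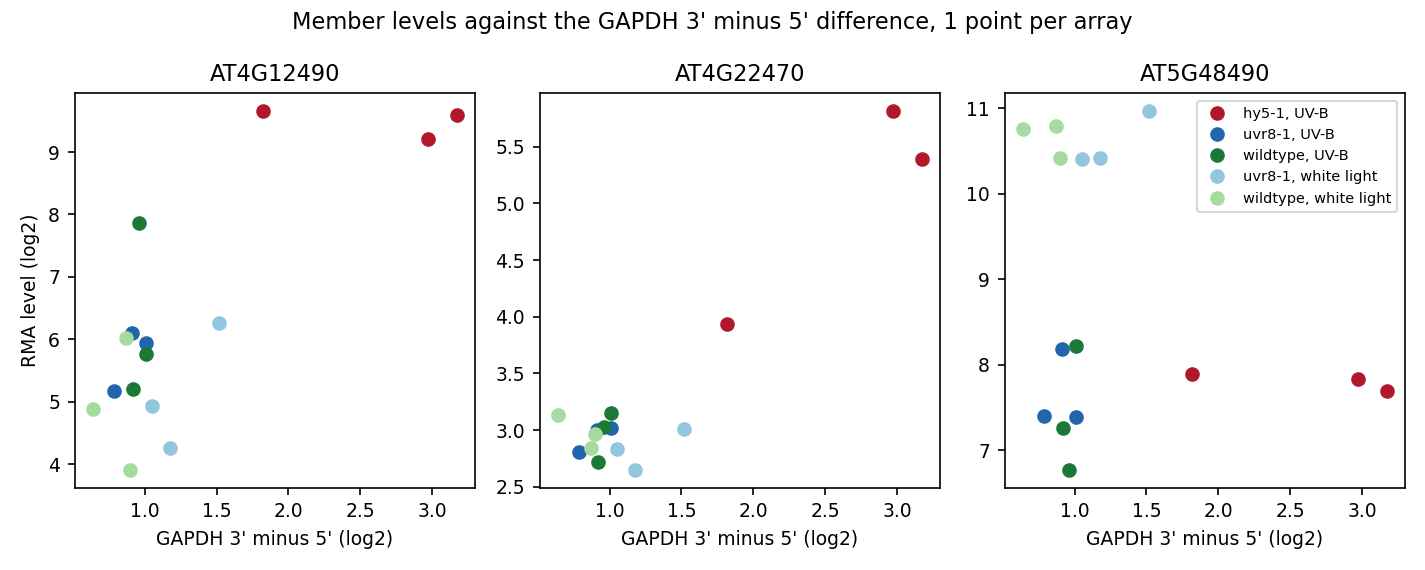
Log2 level of each gene (y axis) against the log2 difference between the 3′ and 5′ GAPDH probe sets (x axis), with 1 point per array coloured by group. The hy5-1 arrays lie at 1.82 to 3.17 and the other 12 at 0.64 to 1.52. Among the hy5-1 arrays, the one at 1.82 has the lowest level of AT4G22470, 3.94, and the highest of AT4G12490, 9.65.

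AT5G48490, the neighbour of DIR1 in gene order, was low in all 3 UV-B groups and high in both white light groups. Its log2 level under UV-B was 7.83, 7.69 and 7.89 in hy5-1, 8.18, 7.40 and 7.39 in uvr8-1, and 8.22, 7.26 and 6.77 in wildtype. In white light it was 10.96, 10.40 and 10.41 in uvr8-1 and 10.76, 10.42 and 10.79 in wildtype. The 9 UV-B arrays and the 6 white light arrays did not overlap. Of all probe sets 24.2% had every UV-B array below every white light array in uvr8-1, and 24.3% in wildtype. The hy5-1 arrays played no part in choosing the gene, and their 3 values lay within the range of the other UV-B arrays.

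UV-B minus white light for AT5G48490 was -2.93 ± 0.31 in uvr8-1, a 7.63-fold lower level, and -3.24 ± 0.31 in wildtype, a 9.44-fold lower level. Both chose the gene. The same comparisons called 19.0% of all probe sets lower in uvr8-1 and 18.3% in wildtype. The difference of the responses, uvr8-1 minus wildtype, was 0.31 ± 0.44. The pairs of equally numbered uvr8-1 arrays gave -2.78, -2.99 and -3.02, and those of wildtype gave -2.54, -3.16 and -4.01. Replicate 1 was the highest UV-B array in both genotypes. Of the 2 measured leaf markers, LHCB4.2, a chlorophyll-binding protein of the light-harvesting antenna, was at 8.27 to 9.84 on the 9 UV-B arrays and at 10.49 to 11.32 on the 6 white light arrays. RCA, which encodes Rubisco activase, overlapped, at 12.18 to 12.46 on the UV-B arrays and 12.40 to 12.54 on the white light arrays. The mean of both was 10.34 to 11.01 under UV-B and 11.52 to 11.91 in white light, and their part in the result was not tested.

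Genotype comparisons of AT5G48490 under UV-B did not choose it and passed no test. hy5-1 minus wildtype was 0.39 ± 0.31 (limma, adjusted p = 0.471) and hy5-1 minus uvr8-1 was 0.14 ± 0.31 (limma, adjusted p = 0.789). uvr8-1 minus wildtype was 0.24 ± 0.31 under UV-B (limma, adjusted p = 0.901) and -0.07 ± 0.31 in white light (limma, adjusted p = 1). When replicate 1 of every group was left out, a choice made after the data were seen, hy5-1 minus wildtype became 0.77 ± 0.18 (limma, adjusted p = 0.047). Its white light level differed between uvr8-1 and wildtype by less than the spread within either group.

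The choice took the 10 largest differences in each comparison and direction among called genes whose groups did not overlap. The genes just inside and just outside that limit stood at 1.60 and 1.58 for hy5-1 above wildtype, 2.42 and 2.38 for hy5-1 above uvr8-1, -2.87 and -2.85 for UV-B in uvr8-1, and -3.12 and -3.09 for UV-B in wildtype. AT5G48490 in uvr8-1 was close to that edge, and AT4G12490 was far inside it in both of its comparisons.

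AT4G12490 and AT4G22470 were both chosen for high values on the same hy5-1 arrays, which by itself makes their values over the 15 arrays correlate, at a Pearson r of 0.81. The r of their deviations from group means was 0.06. The r of AT5G48490 was -0.52 with AT4G12490 and -0.32 with AT4G22470. These values describe arrays that share groups and normalisation.

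Of the other single-gene probe sets, those most like AT4G12490 over the 15 arrays were AT5G01960 (r = 0.956), AT4G10690 (r = 0.934), AT5G37560 (r = 0.92), the plant defensin gene PDF1.4 (r = 0.919) and AT5G16460 (r = 0.915). PDF1.4 averaged 5.36 in hy5-1, 3.87 in uvr8-1 and 3.78 in wildtype under UV-B, and 3.49 in uvr8-1 and 3.44 in wildtype in white light. The others differed less: AT5G01960 averaged 6.93 in hy5-1 and 6.32 in wildtype under UV-B. AT4G10690, AT5G37560 and AT5G16460 had every group mean under 3.74, at 3.72, 2.78 and 2.85 in hy5-1. In wildtype under UV-B these were 3.32, 2.59 and 2.67. Those most like AT4G22470 were AT1G54926 (r = 0.986), AT4G27400 (r = 0.964), the nitrate transporter gene NRT2.5 (r = 0.953), AT4G33160 (r = 0.945) and AT1G64820 (r = 0.94). Every group mean of AT1G54926, NRT2.5 and AT1G64820 was under 3.74. Probe sets with a mean under 3.74 were shifted upward in hy5-1 as a class, as given below. Those most like AT5G48490 were AT4G34220 (r = 0.986), AT1G35420 (r = 0.986), AT5G14410 (r = 0.985), AT5G19940 (r = 0.984) and AT1G31920 (r = 0.984), each with a mean lower in every UV-B group than in either white light group.

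The lipid transfer protein family was described by a list of 107 genes, of which 50 had a probe set of their own. The other 57 had no probe set of their own and are outside the counts below. AZI1, EARLI1 and DIR1, among them, have no value here. AT5G46890 and AT5G46900 share a probe set, which was higher in hy5-1 than in uvr8-1 under UV-B by 0.65 ± 0.15 (limma, adjusted p = 0.0137). Of all probe sets 5.37% were called higher in that comparison. Against wildtype the shared probe set differed by 0.46 ± 0.15 (limma, adjusted p = 0.0791). AT4G12510 and AT4G12520 share another, given further below. Of the 50 measured genes, 32 had a mean level under 3.74.

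Under UV-B no other measured family gene was called higher and a few fell. In uvr8-1, 5 of the other 47 family genes fell under UV-B and 0 rose, against 19.0% called lower and 12.9% called higher among all probe sets. At an unadjusted p under 0.05, 7 were lower and 1 was higher, beside 39.2% of all probe sets in either direction. AT2G10940 (-1.20), AT1G62510 (-1.08) and AT2G27130 (-1.04) were called in both genotypes (limma, adjusted p = 0.00014, 0.00128 and 8.74e-05 in uvr8-1). AT5G05960 fell by 1.42 and AT1G48750, named after its value was seen, fell by 0.88 (limma, adjusted p = 0.00888 and 0.00899). The median of the 47 was -0.05, beside -0.03 for all probe sets. AT5G55450, also named after its value was seen, was at 8.03, 8.49 and 9.64 in uvr8-1 under UV-B and at 7.39, 7.51 and 7.91 in uvr8-1 in white light. Its difference was 1.11 (limma, adjusted p = 0.0857), and it was called with the replicate number as a block (limma, adjusted p = 0.0203).

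In wildtype 4 of the other 47 fell and 0 rose (limma), against 18.3% called lower and 12.2% called higher among all probe sets. At an unadjusted p under 0.05, 5 were lower and 1 was higher, beside 38.5% of all probe sets in either direction. The median difference of the 47 was -0.07, beside -0.04 for all probe sets. The 4 were AT1G62510 (-1.42, adjusted p = 0.000164), AT2G10940 (-1.23, adjusted p = 0.000116), AT2G27130 (-1.01, adjusted p = 0.000108) and AT2G44300 (-0.50, adjusted p = 0.0176). AT2G44300 lost its call in 2 of the 6 fits that left out 1 array of these groups, reaching an adjusted p of 0.0866 without replicate 3 of wildtype under UV-B. With the replicate number as a block AT2G45180 was also called, at -0.49 (limma, adjusted p = 0.0499).

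No family gene, member or not, was called for a difference between the UV-B responses of uvr8-1 and wildtype, nor for uvr8-1 minus wildtype in either light. Among all probe sets limma called 0.857% for the difference of responses, and 7.07% had an unadjusted p under 0.05 there. For uvr8-1 minus wildtype under UV-B it called 0.422% higher and 1.99% lower, and in white light 0.0176% in either direction. Of the other 47 family genes, 1 had an unadjusted p under 0.05 in white light, where it was lower in uvr8-1, and 0 in the other 2 comparisons. At that threshold stood 12.0% of all probe sets for the UV-B arrays and 1.63% for the white light arrays.

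In hy5-1 most measured family genes had a difference above 0 from the other genotypes under UV-B, and few were called. Against wildtype 2 of the other 47 genes rose and 0 fell (limma), beside 2.77% called higher and 4.81% called lower among all probe sets. At an unadjusted p under 0.05, 14 were higher and 1 was lower, beside 25.0% of all probe sets in either direction. Of the 47 differences 39 were above 0, with a median of 0.16, beside a median of 0.04 for all probe sets. Dim probe sets as a class were shifted in the same comparison: those with a mean under 3.74 had a median difference of 0.10, and 76.4% of them were above 0. The part of that shift in the family's median was not tested.

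AT4G12500, the measured gene nearest to AT4G12490 on the side away from AZI1 and EARLI1, was the family gene outside the chosen 3 with the smallest adjusted p between hy5-1 and wildtype. Its level was 3.76, 4.92 and 4.93 in hy5-1 under UV-B, against 3.32, 3.08 and 3.20 in uvr8-1 and 3.29, 3.19 and 3.19 in wildtype under UV-B. The hy5-1 arrays did not overlap the others, as for 16.0% of all probe sets against wildtype and 17.1% against uvr8-1 in this direction. Replicate 1 was the lowest hy5-1 array. The difference was 1.32 ± 0.24 against wildtype and 1.34 ± 0.24 against uvr8-1 (limma, adjusted p = 0.00701 and 0.00382). The call against wildtype remained in the 6 fits without 1 array of these groups, ended when only the groups compared were fitted, and under the GAPDH covariate the difference was 1.67 ± 0.51 (limma, adjusted p = 0.855).

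AT1G62510, which fell under UV-B in both other genotypes, was at 6.14, 6.25 and 5.97 in hy5-1 under UV-B, against 4.88, 5.02 and 4.67 in uvr8-1 and 5.01, 5.53 and 4.95 in wildtype under UV-B. Its hy5-1 values lay within the range of the white light values, 5.84, 5.94 and 6.01 in uvr8-1 and 6.06, 6.72 and 6.96 in wildtype. hy5-1 minus wildtype was 0.96 ± 0.21 (limma, adjusted p = 0.0162), and that call ended in 3 of the 6 fits without 1 array. hy5-1 minus uvr8-1 was 1.27 ± 0.21 (limma, adjusted p = 0.00235), and that call remained in all 6. Under the GAPDH covariate the differences were 0.65 ± 0.44 against wildtype and 0.94 ± 0.45 against uvr8-1, and neither was called. That fit called 0 probe sets higher in hy5-1 than in wildtype and 5 higher than in uvr8-1.

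Against uvr8-1 under UV-B, 7 of the other 47 family genes rose in hy5-1 and 0 fell, beside 5.37% called higher and 8.47% called lower among all probe sets. At an unadjusted p under 0.05, 15 were higher and 0 lower, beside 29.6% of all probe sets in either direction. The median was 0.20, and 43 of the 47 were above 0. Dim probe sets were shifted here too, with a median of 0.11 and 77.2% above 0. Next to AT4G12500 and AT1G62510, AT1G70250 (0.44), AT5G07230 (0.42) and AT4G22650 (0.36) were among the 7, and AT1G36150 (0.64) and AT1G05450 (0.34), named after their values were seen, complete them. The 5 genes other than AT4G12500 and AT1G62510 each lost the call in 4 or 5 of the 6 fits without 1 array. AT5G01870, named after its value was seen, had the largest difference among the uncalled genes: it was at 6.64, 6.27 and 6.82 in hy5-1, against 5.79, 5.01 and 4.22 in uvr8-1 and 5.63, 4.96 and 4.90 in wildtype under UV-B. hy5-1 minus uvr8-1 was 1.57 and hy5-1 minus wildtype was 1.41 (limma, adjusted p = 0.0831 and 0.146). Without replicate 1 of every group, a choice made after the data were seen, these were 1.93 ± 0.37 and 1.61 ± 0.37, both called (limma, adjusted p = 0.0189 and 0.0429). Both were also called with the replicate block (limma, adjusted p = 0.0118 and 0.0264), although the numbers do not pair the hy5-1 arrays.

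**Figure D3:**
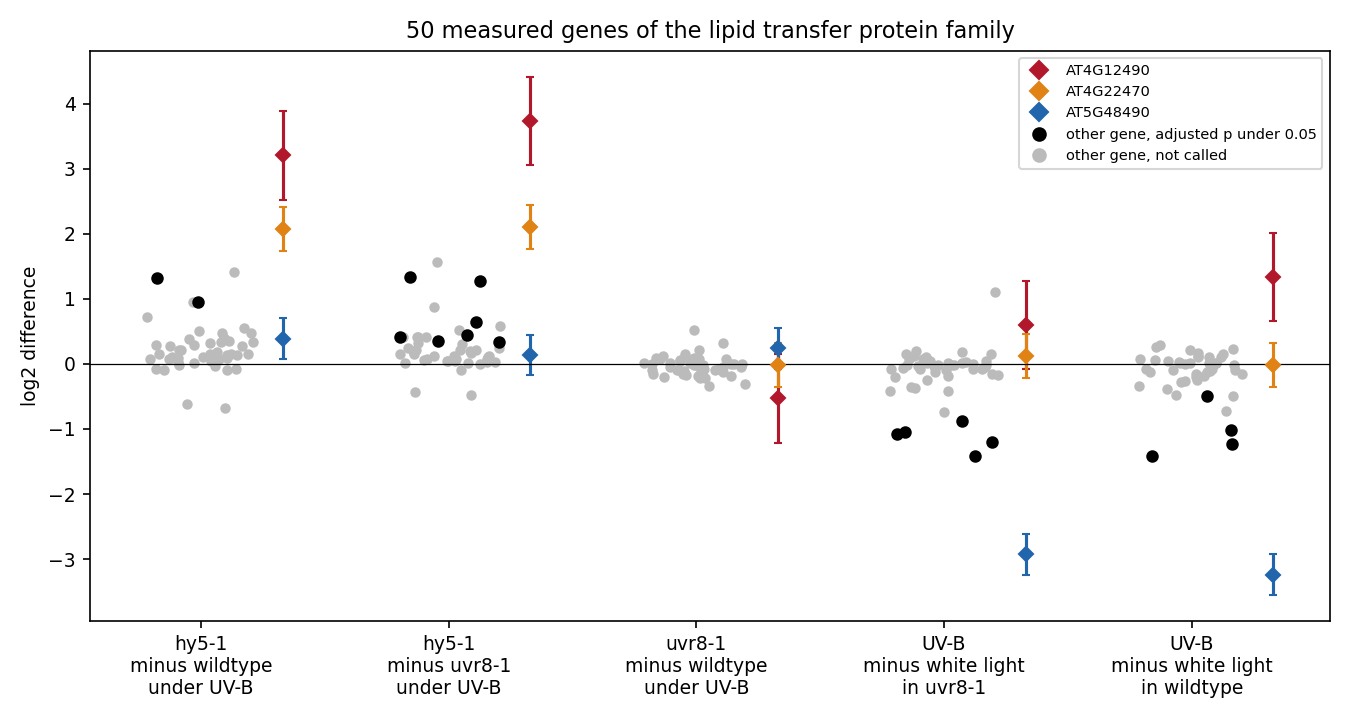
Log2 differences (y axis) of the 50 measured family genes in 5 comparisons (x axis). Diamonds with SE bars are the 3 chosen genes, black points other genes called by limma and grey points other genes not called, spread sideways for legibility. In the hy5-1 comparisons 39 and 43 of the 47 other genes lie above 0, as do 76.4% and 77.2% of all probe sets with a mean under 3.74. In the comparisons of UV-B minus white light the called genes lie below 0.

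The genes beside each member on the chromosome were taken as the 5 protein-coding genes on each side in the RefSeq gene order. Beside AT4G12490, 2 of the 10 had a probe set of their own. Among all probe sets under UV-B, 2.77% were called higher in hy5-1 than in wildtype and 5.37% higher than in uvr8-1. AT4G12500 rose in hy5-1 as given above, and AT4G12530 differed by 0.29 ± 0.09 from wildtype and by 0.20 ± 0.09 from uvr8-1, not called (limma, adjusted p = 0.0728 and 0.165). AT4G12510 and AT4G12520 share a probe set, so their values cannot be separated. hy5-1 minus wildtype was 0.42 ± 0.13 for that probe set (limma, adjusted p = 0.0706), and UV-B minus white light in wildtype was -0.45 ± 0.13 (limma, adjusted p = 0.0189). The RefSeq table places AT4G12495 within the span of AT4G12490, and which of these transcripts the probe set detects was not tested.

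Beside AT4G22470, 4 of the 10 neighbours were measured. hy5-1 minus wildtype under UV-B, called higher for 2.77% and lower for 4.81% of all probe sets, was called for none of them. It was 0.51 ± 0.15 for AT4G22460, another family gene (limma, adjusted p = 0.0642), and -0.09 for AT4G22490, also of the family. AT4G22460 was called with the replicate block, at 0.51 ± 0.13 (limma, adjusted p = 0.0313), although the numbers do not pair the hy5-1 arrays. Without replicate 1 of every group, a choice made after the data were seen, it was also called, at 0.68 ± 0.10 against wildtype and 0.51 ± 0.10 against uvr8-1 (limma, adjusted p = 0.0123 and 0.0189). Beside AT5G48490, 4 of the 10 were measured. AT5G48460 fell under UV-B, with differences of -1.59 in uvr8-1 and -1.31 in wildtype (limma, adjusted p = 1.55e-05 and 7.4e-05). Among all probe sets 19.0% were called lower by UV-B in uvr8-1 and 18.3% in wildtype. AT5G48480 was called lower in hy5-1 than in uvr8-1 under UV-B, at -0.46 ± 0.14 (limma, adjusted p = 0.0428), beside 8.47% of all probe sets. The other measured neighbours were not called.

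**Figure D4:**
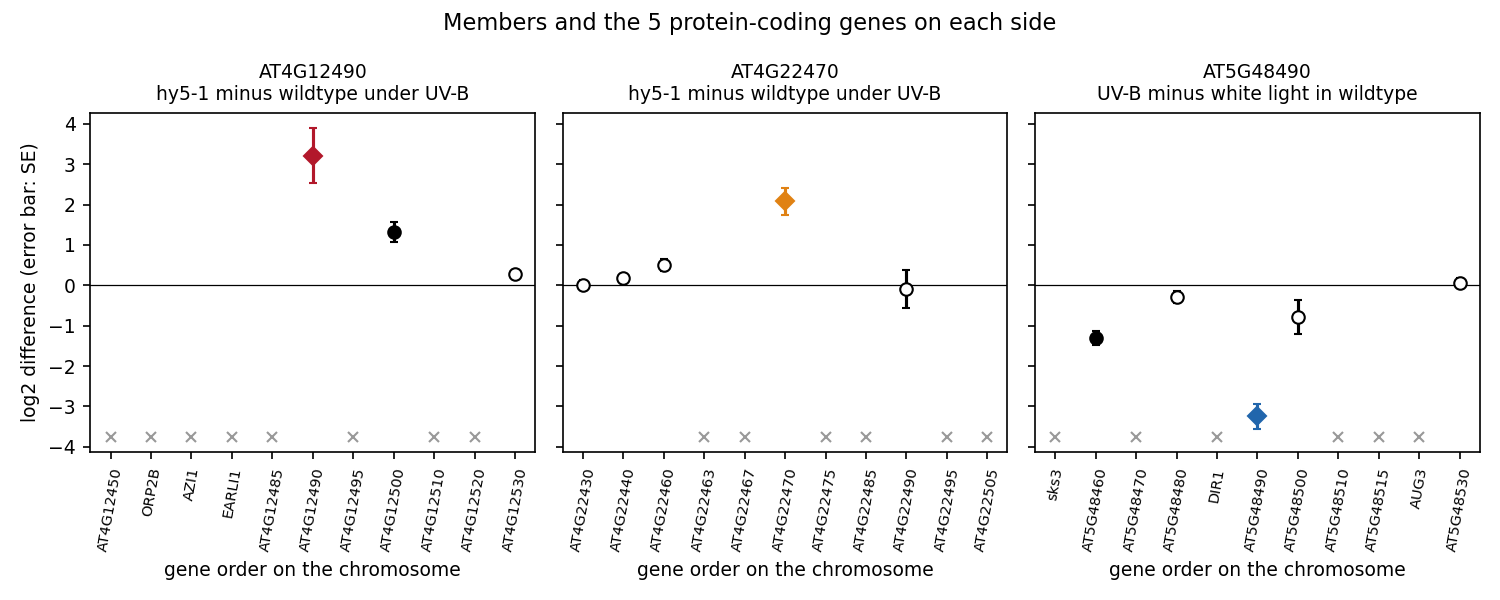
Log2 differences with SE (y axis) of each chosen gene (diamond) and its measured neighbours (circles, filled where called by limma) in chromosome order (x axis). Crosses at the bottom edge mark neighbours without a probe set of their own. AT4G12500 rose beside AT4G12490, and AT5G48460 fell in the neighbourhood of AT5G48490.

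Genes of the processes in which lipid transfer proteins are known to act were read from a list for systemic acquired resistance and salicylate and a list for cuticle and wax. Of the 41 genes of the resistance list 5 were measured. Under UV-B 3 of the 5 rose in uvr8-1 and 2 in wildtype (limma), and none fell. Among all probe sets 12.9% were called higher and 19.0% lower in uvr8-1, and 12.2% higher and 18.3% lower in wildtype. At an unadjusted p under 0.05, 3 were higher and 1 lower in uvr8-1, and 2 higher and 0 lower in wildtype. At that threshold stood 39.2% of all probe sets in uvr8-1 and 38.5% in wildtype, in either direction. UGT76B1, a glycosyltransferase that conjugates salicylate and isoleucic acid, was at 8.26, 7.91 and 8.51 in uvr8-1 under UV-B and 7.13, 6.63 and 9.24 in wildtype under UV-B, against 3.22, 3.32 and 3.64 in uvr8-1 and 3.20, 3.37 and 3.12 in wildtype in white light. UV-B and white light arrays did not overlap for this gene, as for 16.6% of all probe sets in uvr8-1 and 16.2% in wildtype in this direction, and the differences were 4.83 in uvr8-1 and 4.44 in wildtype (limma, adjusted p = 6.42e-06 and 1.28e-05). AT5G52810 rose by 3.21 in uvr8-1 and by 2.61 in wildtype (limma, adjusted p = 2.91e-05 and 0.000157). SAG101, a lipase-like protein of immune signalling, rose by 0.89 in uvr8-1 (limma, adjusted p = 0.0276), a call that ended in 4 of the 6 fits without 1 array. In wildtype its difference was 0.59, which was called with the replicate number as a block (limma, adjusted p = 0.148 without the block and 0.0289 with it).

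In hy5-1 1 of the 5 measured resistance genes rose against each of the other genotypes under UV-B, beside 2.77% of all probe sets called higher against wildtype and 5.37% against uvr8-1. AT5G03350 was at 10.39, 10.56 and 9.98 in hy5-1 under UV-B, against 7.66, 7.65 and 8.36 in uvr8-1 and 7.93, 7.53 and 8.60 in wildtype under UV-B. The hy5-1 arrays did not overlap the others, as for 16.0% of all probe sets against wildtype and 17.1% against uvr8-1 in this direction. hy5-1 minus wildtype was 2.29 ± 0.36 and hy5-1 minus uvr8-1 was 2.42 ± 0.36 (limma, adjusted p = 0.00351 and 0.00135). Both calls remained in the 6 fits without 1 array of these groups, and under the GAPDH covariate the differences were 1.59 ± 0.75 and 1.70 ± 0.77, not called.

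Of the 37 cuticle and wax genes 3 were measured. Under UV-B 2 of the 3 were called lower in uvr8-1 and 1 in wildtype (limma), beside 19.0% and 18.3% of all probe sets. AT5G61590, which encodes DEWAX, a transcription factor that represses wax biosynthesis, fell under UV-B, with differences of -1.71 in uvr8-1 and -2.08 in wildtype (limma, adjusted p = 0.00145 and 0.00035). WSD1, a wax ester synthase, fell by 0.45 in uvr8-1 (limma, adjusted p = 0.0471), and that call ended in 4 of the 6 fits without 1 array. AT5G33370 was not called, at -0.92 in uvr8-1 and -0.64 in wildtype (limma, adjusted p = 0.0585 and 0.196). With the replicate number as a block it was called in both, with adjusted p = 0.00608 in uvr8-1 and 0.0398 in wildtype (limma). None of the 3 was called in a hy5-1 comparison or between uvr8-1 and wildtype.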

How the data were processed

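Total leaf RNA was measured on 15 Affymetrix ATH1 arrays. The authors deposited log2 values made with RMA, per the submitters' processing notes. The RMA version and the joint or separate processing of the arrays are not given in these sources. The table held 22810 probe sets. The 64 controls were set aside and 22746 were tested, without further normalisation or a filter on signal. GEO's platform annotation paired 13513 probe sets with 1 gene, 503 with several and 8730 with none. Symbols and gene order came from the RefSeq gene table of TAIR10.1, which matched 13436 of the 13513. No array build is named, so no coordinates are given. No sequence of a probe, promoter or protein was used.

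A mean per group was fitted with limma 3.58.1 (lmFit, contrasts.fit, eBayes) in R 4.3.3, with 10 residual and 3.09 prior degrees of freedom, for 7 contrasts, 2-sided, with Benjamini-Hochberg adjustment. The pipeline was tested on simulated data. Tables and plots used Python 3.11.15, pandas 2.3.3, numpy 2.4.6 and matplotlib 3.10.9. The number of arrays, 3 per group, limits the precision.

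The members and the gene lists were chosen with earlier results of these data known. Named besides the members were genes of their chromosomal blocks, up to 4 other called family genes and up to 3 called genes of each other list per contrast by smallest p, and the 5 most alike genes per member. Where a gene had several single-gene probe sets, that of highest mean stood for it. Alternatives were median centring, quantile normalisation, a filter on the dimmest 40% of probe sets, an intensity trend, array weights, only the groups compared, the replicate number as a block and leaving out each array; the GAPDH covariate and leaving out replicate 1 were added after the data were seen.

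Replicate numbers come from the titles. Deviations from group means of equally numbered arrays correlated at 0.104 or more in the 5 comparisons of wildtype and uvr8-1. The minimum set for pairing was 0.1, which the lowest of these only just passed, so the numbers were taken to pair those arrays. The main fit did not use this pairing, so its p-values are unpaired. The pairing entered through the fit with the replicate number as a block, and through the differences of equally numbered arrays, which are given as a description. In the hy5-1 comparisons the deviations correlated at -0.026 to 0.123, not all above 0.1, and the numbers were not taken to pair.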

Additional observations from a re-analysis of the deposited data

How the results depend on the processing

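Leaving out 1 array or replicate 1 gave, for hy5-1 minus wildtype under UV-B, 2.66 to 4.00 in AT4G12490, 1.70 to 2.64 in AT4G22470 and 0.06 to 0.79 in AT5G48490, the last called at 0.77 without replicate 1. For hy5-1 minus uvr8-1 it gave 1.72 to 2.66 in AT4G22470. For UV-B minus white light AT5G48490 gave -3.64 to -2.92 in wildtype and -3.19 to -2.75 in uvr8-1.

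With the GAPDH covariate hy5-1 minus wildtype was 0.20 in AT4G22470 and 2.76 ± 1.47 in AT4G12490, and hy5-1 minus uvr8-1 was 0.15 and 3.27 ± 1.51. The cause was not tested. The following uncalled differences changed sign. AT4G22470 for UV-B in wildtype was 0.02 with array weights and with median centring, and -0.11 to 0.11 with 1 array or replicate 1 left out. AT4G22470 for uvr8-1 minus wildtype under UV-B was 0.05 with the covariate, 0.02 with array weights and -0.14 to 0.07 with arrays left out (0.04 without replicate 1). AT4G12490 for the difference of responses was 0.05 with array weights and -1.29 to 0.05 with arrays left out, for uvr8-1 minus wildtype under UV-B -1.07 to 0.27, and in white light -0.45 with array weights and -0.37 to 0.76 with arrays left out. AT5G48490 gave -0.02 to 0.71 for the difference of responses, -0.08 to 0.64 for uvr8-1 minus wildtype under UV-B and -0.25 to 0.03 in white light.

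The count of other family genes called higher in hy5-1 than in wildtype, 2, was 0 with the covariate, 4 with array weights, 5 with the intensity trend, 1 without the dimmest 40% and 1 to 4 with arrays left out. Called lower, 0, was 0 to 1 with arrays left out. Against uvr8-1 the 7 became 0 with the covariate, 14 with array weights, 3 with only the groups compared or quantile normalisation, 2 without the dimmest 40% and 2 to 6 with arrays left out. For UV-B in uvr8-1 the 0 called higher was 1 with array weights and 0 to 1 with arrays left out. AT4G22470 was not fitted without the dimmest 40%, which removes it. Another probe set per member could not be tried, since each has 1.

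The replicate block changed no call of the 3 members in the comparisons that did not choose them. It raised the family genes called higher in hy5-1 to 8 against wildtype and 11 against uvr8-1, with 1 called lower against wildtype, and called 1 higher for UV-B in uvr8-1. The numbers do not pair the hy5-1 arrays.

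The background counts moved too. Of all probe sets, 631 were called higher in hy5-1 than in wildtype, against 0 with the covariate, 223 with only the groups compared, 406 without the dimmest 40%, 1226 with the block and 187 to 772 with arrays left out. Called lower, 1095 became 2 with the covariate, 564 with only the groups compared and 363 to 1241 with arrays left out. Against uvr8-1, 1222 called higher became 5 with the covariate, 781 with only the groups compared, 2248 with array weights and 601 to 1263 with arrays left out, and 1926 called lower became 2 with the covariate and 890 to 1912 with arrays left out. For uvr8-1 minus wildtype under UV-B, 96 called higher ranged from 17 with only the groups compared to 258 with arrays left out, and 453 called lower from 196 to 626. For the difference of responses, 189 called lower ranged from 81 with arrays left out to 306 with array weights, and 6 called higher from 1 to 40. In white light the 4 called became 0 with only the groups compared.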
